A study of Mus musculus with 36 samples.

Results

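Microglia, the macrophages that reside in the brain, were followed in striatal RNA through 10 of their marker genes: the receptor genes Cx3cr1, P2ry12, Csf1r, Trem2 and Itgam, the adaptor gene Tyrobp, the cytoplasmic marker gene Aif1, and C1qa, C1qb and C1qc, which encode the chains of complement C1q. Members were all probe sets that the probe-to-gene table of the array assigns to one of these genes. The genes were named with earlier results of these data known, and no value entered the rule itself. This gave 16 of the 45037 probe sets other than controls, and 4 of the genes have several. A probe set was called detected where its intensity exceeded 99.7, which is 6.64 on the log2 scale, on at least 9 of the 36 arrays. This held for 13 member probe sets from 8 genes and for 27212 probe sets in all. The 2 probe sets of Trem2 and the only one of Itgam were too dim to pass and are described apart.

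The striatum (rostral caudate/putamen with nucleus accumbens) was taken from adult male mice of 4 inbred strains, SWR/J, DBA/2J, C57BL/6J and 129P3/J, and read on 36 Affymetrix expression arrays of the Mouse Genome 430 2.0 type, with 3 arrays in each of the 12 strain-by-treatment groups. Control mice were injected with saline 3 times a day. Acute groups followed the saline schedule and then had a single subcutaneous dose of 20 mg/kg of morphine, an opioid agonist, on day 5. Chronic groups had 3 morphine injections daily, with doses that rose from 10 mg/kg through 20 mg/kg to 40 mg/kg over the first 4 days, and a final injection of 40 mg/kg on day 5. All animals were 8 to 10 weeks old and were sacrificed 4 h after that final injection. RNA of 3 mice was pooled for every array, which makes 9 mice a group, and the p-values measure the spread between pools. The number of arrays limits the precision. The deposited intensities are linear and had been normalized between arrays by the authors, and log2 values were compared here with limma. Each intensity was read as the level of a transcript, which the study's methods state may not hold for some probe sets. Whether sequence differences between the strains under the probes changed an intensity was not tested. Of 9 medium spiny neuron genes, which mark the striatum, 7 were detected, Penk among them with a mean log2 intensity of 12.17. Array medians lay between 119 and 133. The array C57BL/6J saline 1 stood apart in the difference between its 3′ and 5′ Gapdh probe sets, a sign of RNA quality (0.72 on the log2 scale, with -0.11 to 0.12 on the others), and 129P3/J saline 3 and DBA/2J saline 3 stood apart in the poly-A controls added during labelling (-3.58 and -3.47, with -0.86 to 0.49 on the others). Every call on a detected member that was lost or gained in the single comparisons over strains or treatments without these 3 arrays is named beside its result.

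Microglia sense their surroundings through surface receptors: CX3CR1 binds fractalkine from neurons, P2RY12 binds adenine nucleotides, and CSF1R binds the growth factors on which the survival of the cells depends. TREM2 and other receptors without a signalling tail of their own act through the adaptor TYROBP (DAP12). C1q is the recognition molecule that starts the classical complement pathway, is made in the brain mostly by microglia, and is known for tagging synapses for removal. In bulk tissue fewer microglia and less RNA per cell cannot be told apart.

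Strain was tested on 9 arrays against 9 and morphine on 12 against 12, or on 3 against 3 within a strain, so that the counts that follow do not compare the sizes of these effects. The F-test for a strain effect (adjusted p under 0.01) called 5 of the 8 detected genes, Aif1, Tyrobp, C1qa, C1qb and C1qc, and 7 of their 13 probe sets, against 13.2% of all detected probe sets. The F-test for a morphine effect called 1 of 8, Cx3cr1, against 8.71%. With treatment and replicate number together as a random block in limma it called none (Cx3cr1, adjusted p = 0.0138). The interaction of strain and morphine was called for none of the 8, and for 0% of all detected probe sets. At an unadjusted p under 0.05 the interaction likewise gave 0 of 8 members, against 5.14% of all probe sets, and no member was called by it under any other setting tried. Among the 48 comparisons of a member between 2 strains, 20 passed an adjusted p under 0.05, against 8.81% for all probe sets. For 129P3/J these were 5 of 8 members against C57BL/6J (9.65% of all probe sets), 1 against DBA/2J (7.86%) and 4 against SWR/J (8.1%). For C57BL/6J they were 3 against DBA/2J (8.93%) and 5 against SWR/J (10.3%), and DBA/2J against SWR/J gave 2 (8.02%). Of the 64 comparisons of a member between morphine and saline within 1 strain, none passed, against 0.39%, while 10 had an unadjusted p under 0.05, against 9.28%. With array weights in limma 1 passed, where the share of all probe sets rose to 3.33%. Without C57BL/6J saline 1 or DBA/2J saline 2, 1 passed (0.211% and 0.733% of all), and without C57BL/6J chronic 2, 3 passed (1.61%).

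Cx3cr1, the fractalkine receptor gene, was lower after acute morphine over the 4 strains, and its mean was lower in each of them. The numbers that follow are the intensities of its brighter probe set, 1450020_at, by replicate. In 129P3/J they were 498, 411 and 480.4 with saline, 409, 326 and 374 with acute morphine and 417, 277 and 389 with chronic morphine. In C57BL/6J they were 545, 439 and 435 with saline, 356, 318 and 333 with acute and 461, 381 and 512 with chronic morphine. All 3 acute arrays were below all 3 saline arrays in both strains, whereas the chronic arrays overlapped the saline arrays in part. In DBA/2J the intensities were 473, 336 and 553 with saline, 318, 262 and 294 with acute and 412, 416 and 421 with chronic morphine. In SWR/J they were 552, 489 and 713 with saline, 408, 337 and 358 with acute and 558, 443 and 441 with chronic morphine. Thus 12 of 12 acute arrays lay below the lowest saline array of their own strain, and 11 of 12 saline arrays lay above the highest acute array of any strain.

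**Figure D1:**
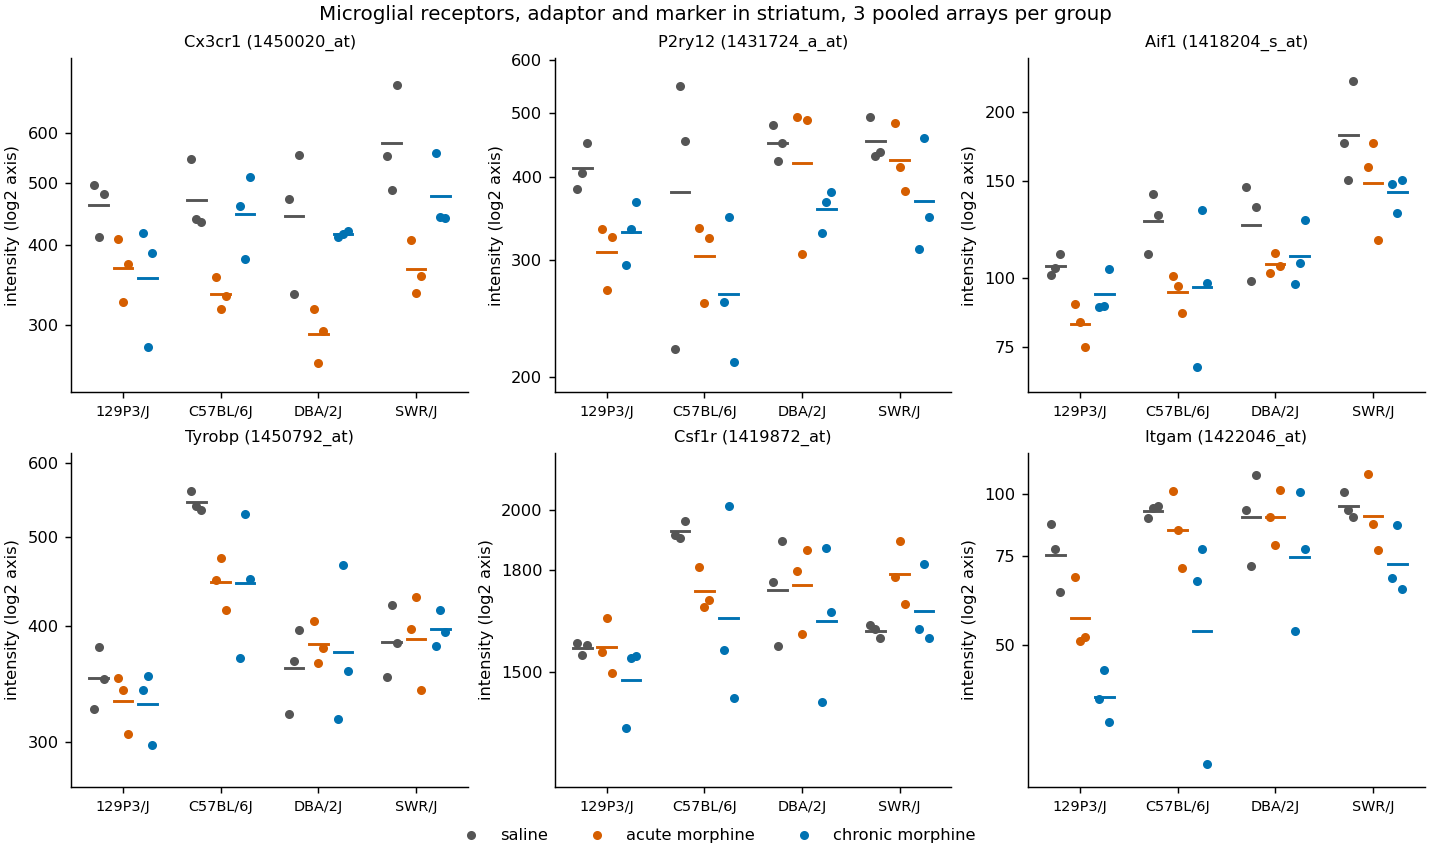
Intensities on a log2 axis of Cx3cr1, P2ry12, Aif1, Tyrobp, Csf1r and the dim Itgam in the 12 groups, with 1 point per array (a pool of 3 mice), strains along the horizontal axis, colours for treatment and bars for the mean of the 3 log2 values. The acute points of Cx3cr1 lie below the saline points of the same strain in all 4 strains, and the 3 chronic points of Itgam in 129P3/J (35.04 to 44.5) lie below all other points of that strain.

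Over the 4 strains the acute difference of Cx3cr1 was -0.52 ± 0.083 (log2, SE, 12 arrays against 12; limma, adjusted p = 0.000363), so that its intensity fell by 30.3%. Aif1 was the other member called, so that 2 of 8 were lower and 0 higher, against 4.69% of all probe sets called and 2.11% called lower. Without the 3 arrays that stood apart the difference of Cx3cr1 was -0.45 ± 0.086 (adjusted p = 0.0056). Within single strains it ranged from -0.33 in 129P3/J to -0.65 in SWR/J. Chronic morphine left Cx3cr1 between both: it was 0.32 ± 0.083 above the acute level (adjusted p = 0.00764) and 0.20 below saline, a difference that did not pass (-0.20 ± 0.083, adjusted p = 0.15). With the random block the acute difference passed (adjusted p = 0.0106) and chronic minus acute did not (adjusted p = 0.0554). Cx3cr1 was the only representative probe set of the 8 called between chronic and acute morphine, against 23.4% of all probe sets, of which 8.87% were higher. Of the chronic arrays, 10 of 12 exceeded the highest acute array of their strain. In 129P3/J the mean difference was -0.05 and in the other strains it was 0.38 to 0.52, and the interaction test of this probe set had an adjusted p of 0.998. The dimmer probe set 1450019_at, with strain means of 84.1 to 105, gave -0.30 ± 0.11 for acute morphine (adjusted p = 0.0965), and there C57BL/6J went the other way (0.28) from its value on the brighter probe set (-0.49).

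By strain, Cx3cr1 was highest in SWR/J, at 478 ± 117 (SD, n = 9 arrays), followed by C57BL/6J at 420.0 ± 79.1, 129P3/J at 398 ± 68.8 and DBA/2J at 387 ± 93.1. Only the ends of this order differed (DBA/2J minus SWR/J -0.30 ± 0.096 on the log2 scale, adjusted p = 0.0476). That call sat at the threshold, and it was lost when any 1 of 23 of the 36 arrays was left out (differences of -0.32 to -0.24). With the 3 arrays that stood apart left out it was -0.36 ± 0.095 (adjusted p = 0.0155).

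P2ry12 encodes the purinergic receptor through which resting microglia extend their processes towards ATP. Its saline intensities were 385, 406 and 451 for 129P3/J, 221, 550.0 and 453 for C57BL/6J, 479.7, 423 and 450.5 for DBA/2J, and 494, 431 and 438 for SWR/J. With chronic morphine they were 295, 335 and 368, then 259.5, 349 and 211, then 330, 367 and 380.2, and 312, 459 and 349 in the same order of strains. Of the chronic arrays, 9 of 12 lay below the lowest saline array of their strain. The low saline value in C57BL/6J (221) came from saline 1, the array with the unequal Gapdh signal. The chronic difference was -0.36 ± 0.11 and did not pass (adjusted p = 0.0587), with all 4 strain means lower (-0.30 to -0.51). Without the 3 arrays that stood apart it was -0.45 ± 0.097 and passed (adjusted p = 0.0112). The acute difference was -0.23 ± 0.11 (adjusted p = 0.25), with DBA/2J at 494, 307 and 489 and SWR/J at 483, 415 and 382 overlapping their saline arrays. Between strains P2ry12 was higher in SWR/J than in C57BL/6J (C57BL/6J minus SWR/J -0.40 ± 0.13, adjusted p = 0.0487), but the call was lost without any 1 of 30 of the 36 arrays (differences of -0.42 to -0.27), and without the 3 arrays that stood apart (-0.27 ± 0.11, adjusted p = 0.13).

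Csf1r encodes the receptor for CSF1 and IL-34. Its brightest probe set, 1419872_at, was among the most even of the members, with strain means of 1538 ± 79.4 (SD, n = 9) for 129P3/J, 1776 ± 196 for C57BL/6J, 1717 ± 161 for DBA/2J and 1693 ± 111 for SWR/J. Csf1r passed in 1 strain pair, 129P3/J minus C57BL/6J (-0.20 ± 0.060, adjusted p = 0.0283). That call was lost when 129P3/J acute 3, 129P3/J chronic 1, C57BL/6J acute 1 or C57BL/6J chronic 2 was left out (-0.19 to -0.15), and without the 3 arrays that stood apart its adjusted p was 0.0584. The other probe sets gave -0.11 (adjusted p = 0.426) and -0.06 (adjusted p = 0.742). For morphine its acute difference was 0.00 ± 0.052, with a 95% confidence interval of -0.11 to 0.11, and its chronic difference -0.08 ± 0.052, with an interval of -0.19 to 0.02. None of its 3 probe sets passed a strain or morphine F-test (adjusted p of 0.0738 to 0.714).

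Tyrobp, the adaptor gene, was highest in C57BL/6J and lowest in 129P3/J. In C57BL/6J its intensities were 560.0, 539 and 535 with saline, 449, 475 and 417 with acute and 369.8, 529 and 450.2 with chronic morphine. In 129P3/J they were 326, 380.2 and 351 with saline, 352, 341 and 306 with acute and 342, 353 and 298 with chronic morphine. Only the lowest C57BL/6J array fell into the range of the 129P3/J arrays. The difference 129P3/J minus C57BL/6J was -0.50 ± 0.073 (adjusted p = 9.49e-06). DBA/2J (375 ± 45.3, SD, n = 9) and SWR/J (391 ± 30.2) lay between them. C57BL/6J exceeded both, by 0.35 ± 0.073 (adjusted p = 0.000982) and 0.29 ± 0.073 (adjusted p = 0.00733), and 129P3/J, DBA/2J and SWR/J did not pass against each other. The difference of Tyrobp from saline was -0.07 ± 0.063 after either schedule, and did not pass (adjusted p = 0.609 acute and 0.55 chronic). In C57BL/6J alone the 3 acute and 3 chronic arrays all lay below the 3 saline arrays (-0.29 for both, unadjusted p = 0.0304 and 0.0284, adjusted p = 0.425 and 0.194).

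Aif1 encodes IBA1, the calcium-binding protein by which microglia are commonly stained. It was the dimmest detected member, above the detection level on 25 of 36 arrays. SWR/J stood above the other strains, at 176, 150.4 and 228 with saline, 159, 176 and 117 with acute and 148, 131 and 150.3 with chronic morphine. In 129P3/J the intensities were 101, 104 and 111 with saline, 89.9, 83.1 and 74.95 with acute and 88.5, 88.9 and 104 with chronic morphine. Every SWR/J array was above every 129P3/J array, and 7 of 9 were above all 27 arrays of the other strains. SWR/J differed from 129P3/J by 0.75 (129P3/J minus SWR/J -0.75 ± 0.10, adjusted p = 4.55e-06), from C57BL/6J by 0.58 (C57BL/6J minus SWR/J -0.58 ± 0.10, adjusted p = 0.000207) and from DBA/2J by 0.47 (DBA/2J minus SWR/J -0.47 ± 0.10, adjusted p = 0.00268). The other 3 strains did not pass against each other.

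After acute morphine Aif1 was lower over the 4 strains, with differences from -0.23 in DBA/2J to -0.43 in C57BL/6J. In C57BL/6J it went from 111, 142 and 130.1 with saline to 101, 96.7 and 86.3, and in DBA/2J from 146, 98.7 and 135 to 102, 111 and 105. The 3 acute arrays lay below all saline arrays in C57BL/6J and 129P3/J, and there was overlap for SWR/J and for DBA/2J. Over the strains the acute difference was -0.33 ± 0.091 (adjusted p = 0.0345), and the chronic difference -0.28 ± 0.091 did not pass (adjusted p = 0.0743). The acute call was lost without 129P3/J saline 1 or 3 or acute 3, C57BL/6J saline 2 or 3 or acute 3, DBA/2J saline 1 or 3 or acute 1 or 3, or SWR/J saline 3 or acute 3 (-0.33 to -0.28, adjusted p at most 0.0856), and without the 3 arrays that stood apart together (-0.33 ± 0.10, adjusted p = 0.106). With the random block it did not pass either (adjusted p = 0.272).

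**Figure D2:**
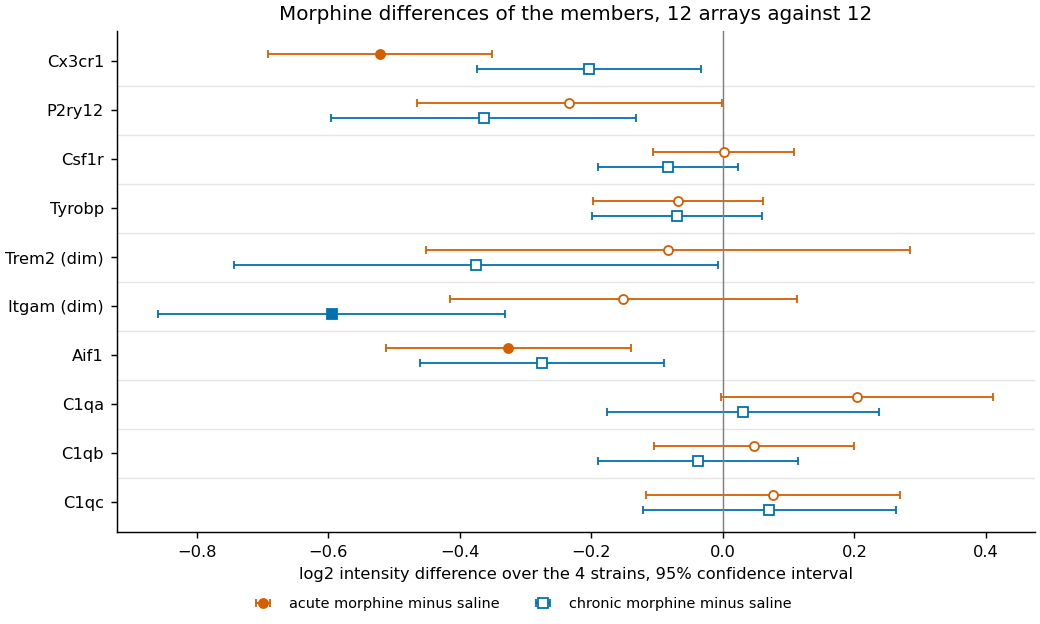
Log2 intensity differences of acute (circles) and chronic (squares) morphine minus saline over the 4 strains for the 10 members, 12 arrays against 12, with 95% confidence intervals from limma; filled symbols passed an adjusted p under 0.05, and the dim genes Trem2 and Itgam come from the fit of all probe sets. Cx3cr1 and Aif1 passed for acute and Itgam for chronic morphine, of which Aif1 and Itgam did not pass with a random block of treatment and replicate number (adjusted p = 0.272 and 0.12), and the intervals of the C1q genes cross 0 for both schedules.

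The chronic comparison with saline gave 0 of 8 detected members at an adjusted p under 0.05, against 4.73% of all probe sets. At an unadjusted p under 0.05 it gave 3 (Aif1, P2ry12 and Cx3cr1, all lower), against 21.5% of all probe sets, and with array weights 3 passed, against 12.2%. Without C57BL/6J chronic 2, 2 passed, against 10.3% of all probe sets. Without C57BL/6J saline 1, DBA/2J saline 2, DBA/2J acute 2 or SWR/J chronic 2, 1 passed, against 4.09% to 4.98%. The morphine F-test called 2 genes without C57BL/6J saline 1 (8.79% of all), C57BL/6J chronic 2 (13.5%) or DBA/2J saline 2 (9.97%). The median difference over the 8 genes was -0.08 for chronic and -0.03 for acute morphine, against 0.00 and 0.01 over all detected probe sets. Both schedules were compared with the same 12 saline arrays.

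The dim members gave weaker evidence. Itgam encodes the CD11b chain of complement receptor 3, and its intensities exceeded 99.7 on 6 of 36 arrays. In 129P3/J they were 86.9, 77.4 and 63.6 with saline, 68.3, 50.8 and 51.8 with acute and 39.0, 44.5 and 35.04 with chronic morphine. In C57BL/6J they were 89.4, 93.4 and 94.3 with saline, 101, 84.5 and 71.1 with acute and 67.1, 77.7 and 28.9 with chronic morphine. All chronic arrays lay below all saline arrays in these strains. In DBA/2J the saline intensities were 92.6, 71.7 and 109 and the chronic ones 53.4, 101 and 77.4, and in SWR/J the saline intensities were 101, 92.6 and 89.8 and the chronic ones 67.9, 86.5 and 64.6. Of the 12 chronic arrays, 10 lay below the lowest saline array of their strain. In the fit of all 45036 probe sets with complete values and no filter on low ones, the chronic difference was -0.59 ± 0.13 (adjusted p = 0.0131), where 2.18% of all probe sets passed. With the random block that call was lost (adjusted p = 0.12). Without the 3 arrays that stood apart it was -0.60 (adjusted p = 0.0309), and with each of the 36 arrays left out in turn -0.66 to -0.485 (adjusted p of 0.0029 to 0.0304). Chronic minus acute was -0.44 ± 0.13 (adjusted p = 0.022, where 13.8% of all probe sets passed), was lost without DBA/2J chronic 1 (-0.38, adjusted p = 0.0507) and with the random block (adjusted p = 0.102), and acute minus saline -0.15 ± 0.13 did not pass (adjusted p = 0.621). By strain its intensity was 57.5 ± 17.7 (SD, n = 9) for 129P3/J, 78.6 ± 21.7 for C57BL/6J, 86.2 ± 17.5 for DBA/2J and 86.2 ± 14.6 for SWR/J. In the fit without a filter Itgam passed the strain F-test (adjusted p = 0.00777), where 4011 of all 45036 probe sets passed. It also passed the morphine F-test there (adjusted p = 0.00763), where 1728 passed. Neither F-test of Itgam was read with the random block. Because these intensities lie below the level used to call a probe set detected, the fold is that of a dim signal with its background, and it was not among the probe sets tested after the filter.

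Trem2, the lipid-sensing receptor gene whose product signals through TYROBP, passed the level of 99.7 on 1 array with the probe set 1421792_s_at and on none with 1421226_at, which sat at the floor of the table (6.69) on many arrays. The brighter of the 2 had mean intensities of 44.8 ± 14.7 (SD, n = 9) in 129P3/J and 75.4 ± 20.1 in C57BL/6J, both under the detection level, so that no fold between strains is given. In the fit without a filter its chronic difference was -0.38 ± 0.18 and did not pass (unadjusted p = 0.0458, adjusted p = 0.271).

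Of the detected members, C1qb and C1qc gave the widest strain differences. C1qb, C1qc and C1qa lie side by side on mouse chromosome 4 in that order, between Ephb2 and Epha8, with no other protein-coding gene among them in the RefSeq annotation of GRCm38.p6. Promoter windows from RefSeq, 250 bases before to 50 bases after the start, were found for 7 of the 10 members. C1qa, Csf1r and Tyrobp had none, so that the window of C1qa could not be compared with those of C1qb and C1qc. The windows of C1qb (chr4:136886151-136886450, minus strand) and C1qc (chr4:136892865-136893164, minus strand) are shown because these 2 genes varied together; written 5′ to 3′ on the strand of the gene, they carry capitals at each AGGAAG or its reverse complement CTTCCT, a purine-rich core of the kind bound by PU.1, the myeloid transcription factor encoded by Spi1.
C1qb: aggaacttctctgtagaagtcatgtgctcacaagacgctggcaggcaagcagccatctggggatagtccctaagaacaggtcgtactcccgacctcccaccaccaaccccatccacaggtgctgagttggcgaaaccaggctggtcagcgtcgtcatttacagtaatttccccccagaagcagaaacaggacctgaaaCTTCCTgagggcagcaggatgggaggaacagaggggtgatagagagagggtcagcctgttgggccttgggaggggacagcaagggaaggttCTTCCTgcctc
C1qc: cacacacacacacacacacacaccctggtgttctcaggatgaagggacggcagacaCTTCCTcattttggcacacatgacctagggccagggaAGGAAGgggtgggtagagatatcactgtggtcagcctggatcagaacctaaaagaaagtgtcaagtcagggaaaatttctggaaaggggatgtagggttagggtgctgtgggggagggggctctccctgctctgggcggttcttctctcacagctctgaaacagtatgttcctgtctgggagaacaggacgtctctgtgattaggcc
Each of these windows held 2 matches, none overlapping another. A match was found in 5 of the 7 member windows (C1qb, C1qc, P2ry12, Trem2 and Itgam), and in 35.4% of all 32851 windows of this length. Spi1 itself was detected and passed neither the strain F-test (adjusted p = 0.28) nor the morphine F-test (adjusted p = 0.0973).

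C1qb, the gene of the B chain, was highest in C57BL/6J. By its brightest probe set, 1434366_x_at, the C57BL/6J intensities were 888, 874 and 1020 with saline, 957, 1007 and 876 with acute and 939, 1036 and 918 with chronic morphine. In SWR/J they were 382, 437 and 517 with saline, 478, 617 and 412 with acute and 486, 454 and 411 with chronic morphine. All 9 C57BL/6J arrays lay above all 27 arrays of the other strains, whatever the treatment. 129P3/J was next (598 ± 83.5, SD, n = 9), then DBA/2J (521 ± 63.4) and SWR/J (466.0 ± 70.7). C57BL/6J exceeded 129P3/J by 0.67 (129P3/J minus C57BL/6J -0.67 ± 0.085, adjusted p = 9.55e-07), DBA/2J by 0.87 ± 0.085 (adjusted p = 7.17e-09) and SWR/J by 1.03 ± 0.085, a ratio of 2.05 (adjusted p = 2.17e-10). 129P3/J also exceeded SWR/J (0.36 ± 0.085, adjusted p = 0.0045), whereas the neighbours DBA/2J and SWR/J (0.17 ± 0.085, adjusted p = 0.352) and 129P3/J and DBA/2J (0.20 ± 0.085, adjusted p = 0.225) did not pass. The other probe sets gave the same order of strains, with C57BL/6J minus SWR/J at 0.87 and 1.04. They were less alike for 129P3/J minus DBA/2J, with 0.32 for 1417063_at and 0.14 for 1437726_x_at. With all arrays 1417063_at passed there and 1437726_x_at did not. The same held without the 3 arrays that stood apart (0.285 ± 0.065, limma, adjusted p = 0.00414, and 0.19 ± 0.11, adjusted p = 0.506).

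C1qc, the gene of the C chain, had the same order. In C57BL/6J its intensities were 637, 887 and 1047 with saline, 874, 809.8 and 732 with acute and 751, 1058 and 882 with chronic morphine. In SWR/J they were 287, 484 and 433 with saline, 422, 495 and 357 with acute and 454, 405 and 428 with chronic morphine. Of the 9 C57BL/6J arrays, 8 lay above all arrays of the other strains, and the exception was C57BL/6J saline 1 (637). The strain means were 853 ± 139 (SD, n = 9) for C57BL/6J, 558 ± 46.9 for 129P3/J, 476 ± 85.3 for DBA/2J and 418 ± 64.3 for SWR/J. C57BL/6J minus SWR/J was 1.03 ± 0.11 (adjusted p = 3.16e-08), a ratio of 2.04, and 129P3/J minus C57BL/6J was -0.60 ± 0.11 (adjusted p = 0.000198). 129P3/J minus SWR/J also passed (0.43 ± 0.11, adjusted p = 0.00862), and DBA/2J did not pass against 129P3/J (adjusted p = 0.24) or SWR/J (adjusted p = 0.46). When the 3 arrays that stood apart were left out, C57BL/6J minus SWR/J was 1.09 ± 0.10 (adjusted p = 8.46e-09) and 129P3/J minus C57BL/6J -0.69 ± 0.105 (adjusted p = 3.29e-05).

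**Figure D3:**
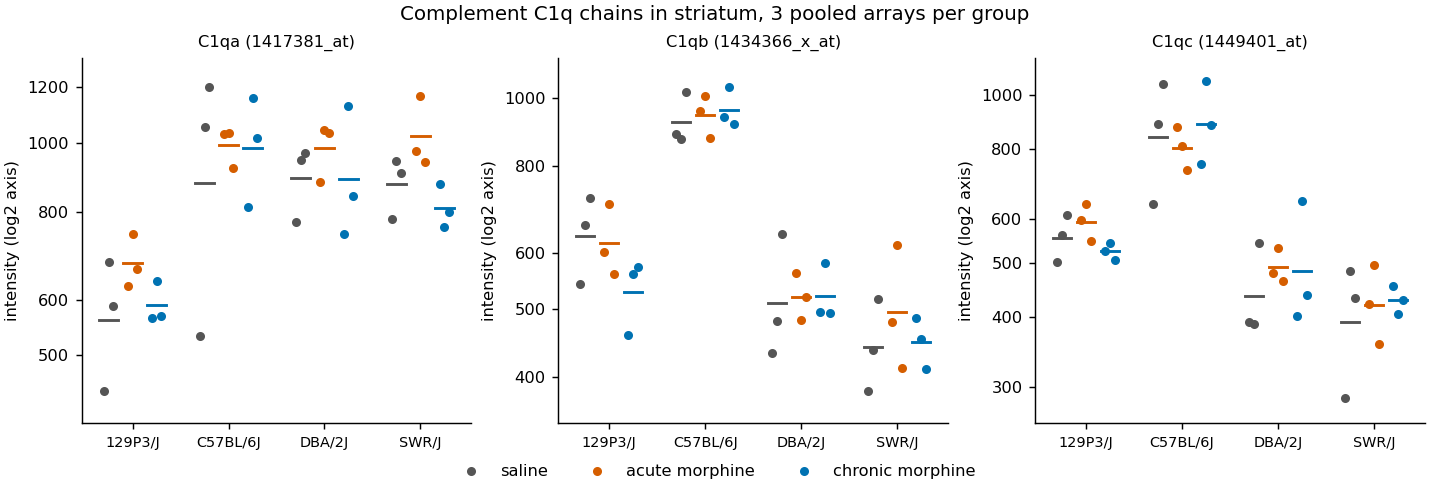
Intensities on a log2 axis of C1qa, C1qb and C1qc in the 12 groups, with 1 point per array (a pool of 3 mice), strains along the horizontal axis, colours for treatment and bars for the mean of the 3 log2 values. C1qb and C1qc are highest in C57BL/6J and lowest in SWR/J, whereas C1qa is lowest in 129P3/J, and the low grey C1qa point in C57BL/6J is the array saline 1 (532).

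C1qa, the gene of the A chain, followed another order. In 129P3/J its intensities were 445, 678 and 587 with saline, 627, 743 and 663.5 with acute and 565, 638 and 567.9 with chronic morphine. In C57BL/6J they were 532, 1055 and 1200.4 with saline, 1030.1, 1032 and 922 with acute and 811, 1159 and 1019 with chronic morphine. Only the array C57BL/6J saline 1 fell into the range of the 129P3/J arrays, and the other 26 arrays of the 3 remaining strains were all above it. The means were 613 ± 84.9 (SD, n = 9) in 129P3/J, 905 ± 125 in SWR/J, 929 ± 129 in DBA/2J and 973 ± 202 in C57BL/6J. 129P3/J was lower than each of the others, by 0.65 against C57BL/6J (-0.65 ± 0.12, adjusted p = 0.00019), 0.60 against DBA/2J (-0.60 ± 0.12, adjusted p = 0.000529) and 0.56 against SWR/J (-0.56 ± 0.12, adjusted p = 0.00109). C57BL/6J, DBA/2J and SWR/J did not pass against each other (0.04 to 0.08, adjusted p of 0.801 to 0.951). Without the 3 arrays that stood apart, 129P3/J minus C57BL/6J was -0.78 ± 0.097 (adjusted p = 1.58e-06).

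**Figure D4:**
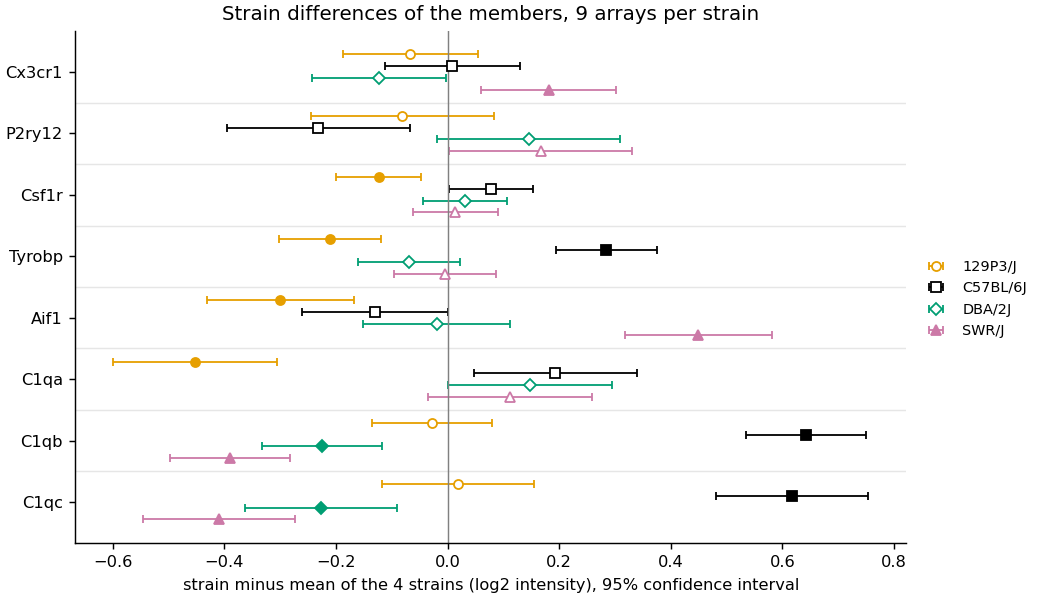
Differences of each strain from the mean of the 4 strains on the log2 intensity scale for the 8 detected members, 9 arrays per strain, with 95% confidence intervals from limma; filled symbols passed an adjusted p under 0.05. C57BL/6J lies at 0.64 for C1qb, 0.62 for C1qc and 0.28 for Tyrobp, SWR/J at 0.45 for Aif1 and 129P3/J at -0.45 for C1qa.

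Over the 12 group means, C1qb and C1qc had a Pearson correlation of 0.984, whereas C1qa correlated with them at 0.162 and 0.0913. Within groups, over the 36 arrays after removal of the group means, all 3 pairs were positive: 0.676 for C1qb with C1qc, 0.503 for C1qa with C1qb and 0.798 for C1qa with C1qc. The 3 genes were read from the same hybridizations, so that these values also hold what the arrays share, and no test was made on them. In an additive model of strain and treatment, the share of the variance (R2) that went with strain was 0.849 for C1qb, 0.780 for C1qc and 0.555 for C1qa, and the share that went with treatment was 0.0067, 0.0062 and 0.064. For Cx3cr1 these shares were 0.135 for strain and 0.473 for treatment.

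**Figure D5:**
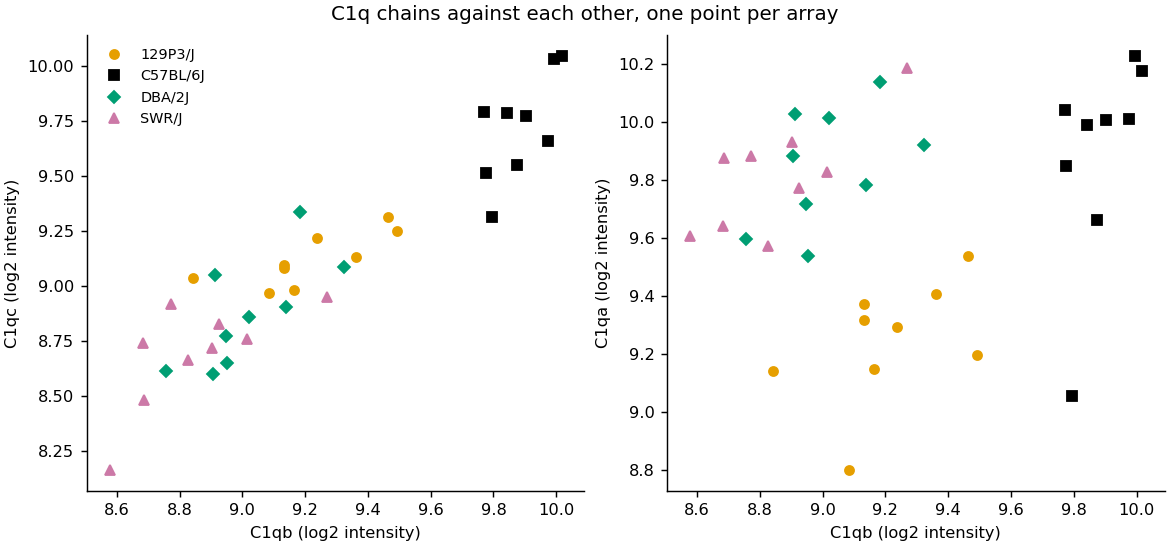
C1qc (left) and C1qa (right) against C1qb on the log2 intensity scale, with 1 point per array and symbols for the 4 strains. C1qb and C1qc rise together over the 12 group means (r = 0.984), while on the right the 129P3/J points lie low for C1qa and the C57BL/6J points lie high for C1qb (r = 0.162).

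The C1q genes gave no call against saline. The acute differences were 0.20 ± 0.10 for C1qa (adjusted p = 0.266; higher in 4 of 4 strains), 0.05 ± 0.074 for C1qb (adjusted p = 0.788) and 0.08 ± 0.094 for C1qc (adjusted p = 0.722). The chronic differences were 0.03 ± 0.10, -0.04 ± 0.074 and 0.07 ± 0.094, with 95% confidence intervals of -0.18 to 0.24, -0.19 to 0.11 and -0.12 to 0.26. Between chronic and acute morphine the probe sets of C1qb were all lower, but differed in whether they passed. The brightest gave -0.09 ± 0.074 (adjusted p = 0.427), while 1417063_at gave -0.21 ± 0.055 (adjusted p = 0.00799) and 1437726_x_at gave -0.31 ± 0.090 (adjusted p = 0.0143), both lower in 4 of 4 strains. In that comparison 14.6% of all probe sets were called lower, and these 2 calls of C1qb were not read with the random block.

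The ligands and signalling partners of the members were read likewise. Morphine calls in this and the following gene lists come from the fit without the random block. With that block far fewer of all detected probe sets were called for morphine, as the closing section gives. Of 13 such genes 12 were detected, and none passed the strain or the morphine F-test, against 13.2% and 8.71% of all probe sets. Cx3cl1 (fractalkine), Csf1 and Il34, the ligand genes, had acute and chronic differences of -0.10 to 0.12. Against saline 1 of the 12 passed after chronic morphine, against 4.73% of all probe sets. This was Plcg2, a phospholipase downstream of TREM2 and TYROBP, which was higher (0.21 ± 0.056, adjusted p = 0.031). Between chronic and acute morphine 1 passed, against 23.4% of all probe sets. It was Clu, the clusterin gene, which was lower after chronic morphine (-0.17 ± 0.055, adjusted p = 0.0228).

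Among 33 other microglia and macrophage genes, 28 were detected, 11 of them passed the strain F-test and 4 the morphine F-test, against 13.2% and 8.71% of all probe sets. The 4 of smallest strain p were Mpeg1, Ly86, Fcgr3 and Fcrls. Mpeg1, which encodes a pore-forming protein of macrophages, lay at -1.11 in 129P3/J and 0.79 in C57BL/6J against the mean of the strains (adjusted p = 1.66e-12). Fcrls, a microglial Fc receptor-like gene, was highest in C57BL/6J (0.79, adjusted p = 1.9e-09), as was the Fc gamma receptor gene Fcgr3 (0.51, with -0.69 in SWR/J; adjusted p = 1.39e-10). Ly86, whose product pairs with the receptor RP105, was highest in DBA/2J (0.59) and lowest in 129P3/J (-0.60; adjusted p = 8.6e-12). For morphine, 0 of the 28 were higher and 1 lower after acute treatment (4.69% of all probe sets called), and 2 higher and 3 lower after chronic treatment (4.73%). Ly86 was the one lower after both, at -0.36 ± 0.075 (adjusted p = 0.00511) and -0.45 ± 0.075 (adjusted p = 0.000923). Like the other morphine calls named here, these were not read with the random block. The others lower after chronic treatment were Rgs10, a regulator of G protein signalling (-0.30 ± 0.048, adjusted p = 0.000695), and Lgmn, the gene of the lysosomal protease legumain (-0.29 ± 0.060, adjusted p = 0.0063), and the higher ones were Mertk and Trem1. Against the acute level, 1 gene was higher and 4 lower after chronic morphine (8.87% and 14.6% of all probe sets). The lower ones were Lgmn (-0.33 ± 0.060, adjusted p = 0.00061), Ctss, which encodes cathepsin S (-0.34 ± 0.070, adjusted p = 0.0016), Rgs10 (-0.19 ± 0.048, adjusted p = 0.0052) and Mpeg1 (-0.31 ± 0.11, adjusted p = 0.034).

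Of 21 other complement genes 12 were detected and 1 passed the strain F-test, against 13.2% of all probe sets. This was Cd59a, which encodes an inhibitor of the membrane attack complex, at -1.14 in 129P3/J and 1.43 in SWR/J against the mean (adjusted p = 7.31e-20). The genes of the proteases that C1q activates, C1ra and C1s1, were not detected, and no probe set was assigned to C3 or C4b in the table used here. None of the 12 passed against saline after either schedule, against 4.69% of all probe sets for acute and 4.73% for chronic morphine. Of 22 microglial activation genes 12 were detected, among them Il1b and Tlr4, whereas Tnf, Il6, Ccl2 and Nos2 were not. None of these 12 passed against saline, and Lpl, which encodes a lipase, was the one that passed the strain F-test (-0.52 in C57BL/6J, adjusted p = 9.91e-09). The same shares of all probe sets apply to these counts.

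Marker genes of other cells were read in the same arrays, and their morphine calls too come from the fit without the random block. Over all detected probe sets the strain F-test called 13.2% and the morphine F-test 8.71%, and chronic morphine against saline 4.73%. Of 7 perivascular macrophage genes 4 were detected and none passed a strain or morphine test; their summed intensity ranged from 424 to 651 with saline, 502 to 691 with acute and 489 to 675 with chronic morphine. Of 12 blood leukocyte genes 2 were detected, with S100a8, S100a9, Cd79a and Ms4a1 not detected, and neither passed; their sum ranged from 224 to 324 with saline, 196 to 357 with acute and 169 to 382 with chronic morphine. Of 5 red blood cell genes 3 were detected and none passed an F-test. Oligodendrocyte genes moved with the strain differences: 5 of 6 detected passed the strain F-test and all 5 were highest in C57BL/6J, by 0.19 to 0.32 above the mean of the strains, with summed intensities of 17306 to 22708 there and 15077 to 18270 in the other strains. Their part in the higher C1qb, C1qc and Tyrobp of C57BL/6J was not tested. Of 6 detected endothelial genes, 1 was higher after acute morphine (Slc2a1, 0.46 ± 0.062), 2 were lower (Tek, -0.27 ± 0.048, and Flt1, -0.27 ± 0.074) and 3 were not called. Over all probe sets 4.69% were called in that comparison and 2.11% were called lower. The summed intensity of the 6 genes was 2503 to 3390 with saline and 3044 to 3705 with acute morphine. Slc2a1 was the brightest of them (mean log2 intensity 10.57). The part of endothelial genes in the lower Cx3cr1 and Aif1 was not tested. Of these 6 endothelial genes 1 passed the strain and 2 the morphine F-test. All 8 astrocyte genes were detected, of which 0 passed the strain and 3 the morphine F-test, and the 7 medium spiny neuron genes gave 2 and 1. After chronic morphine 2 of 8 astrocyte genes (Aqp4 and Gja1), 2 of 6 oligodendrocyte genes (Mag and Cnp) and 2 of 7 medium spiny neuron genes (Drd2 and Rgs9) were lower and none of them was higher. In the same comparison 917 of all 27212 detected probe sets were lower and 371 higher. The part of these 3 gene lists in the lower Itgam was not tested.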

How the data were processed

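The 16 member probe sets were read from the 36 arrays of the series. The deposited table holds a linear signal intensity per probe set, normalized between arrays by the authors, with a floor at 6.69. The study's methods name several ways of computing expression values, among them the dChip model-based index from perfect match and mismatch probes; linear values with a common floor fit that index, but the labels do not state which was deposited. Log2 was taken, and 12 group means (24 residual degrees of freedom) were fitted with limma 3.58.1 under R 4.3.3 on the 27212 detected probe sets. F-tests were called at an adjusted p under 0.01 and single comparisons under 0.05 (Benjamini-Hochberg over all detected probe sets). Each gene was read from the brightest of its detected probe sets. A difference over strains is the mean of the 4 strains' differences. Errors after ± are standard errors unless SD is named.

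The members and gene lists were chosen with earlier results of these data known. Every member probe set was accounted for; of each other list, up to 4 genes of smallest p among those that passed were named, and further genes of the lists were named after their values were seen. The 5 genes most like the members are in the closing section. Promoter windows came from RefSeq on GRCm38.p6, matched by symbol. Alternatives covered the filter, a pseudocount of 16, 2 further normalizations, replicate blocks (duplicateCorrelation, statmod 1.5.0), moderation, array weights, thresholds, probe set choice, the samples in the fit and the omission of arrays. The fit was tested on simulated data. Figures used Python 3.11.15 with matplotlib 3.10.9.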

Additional observations from a re-analysis of the deposited data

Results flagged for a closer look

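In each strain the 9 arrays of each of the 8 detected genes were searched for a single array far from the rest, 32 sets in all, of which chance alone marks about 1 in 20. In C57BL/6J the array saline 1 was far below the others for C1qa (532 against 811 for the next, a gap of 0.517 of the log2 range of the strain). The same array was low for P2ry12 (221) and C1qc (637), but was the highest of the 9 C57BL/6J arrays for Cx3cr1 (545) and Tyrobp (560.0). It had the Gapdh difference of 0.72, whose part in these values was not tested. In 129P3/J the array chronic 1 was just past the limit of 0.493 for Csf1r (1357 against 1498 for the next, a gap of 0.502 of the range). These were the only 2 sets flagged, a number near that which chance alone marks. No member gave an interaction of strain and morphine, so that no difference of the morphine response between strains was marked.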

How the results depend on the processing

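Under all alternatives tried the strain F-test called 5 or 6 members, the interaction 0 and the strain pairs 17 to 28, and no member call changed sign. Of 29 single calls, 23 passed under every alternative and without any single array. The counts that moved were these. With no filter on low values, the morphine F-test called 2 genes, acute 1, chronic 1 and chronic minus acute 2. With quantile normalization acute gave 1. With the thresholds exchanged the morphine F-test gave 2 and acute 1. With array weights the counts were 3 for the morphine F-test, 3 for chronic, 2 for chronic minus acute and 1 within strains. Without the 3 saline arrays that stood apart they were 2 for the F-test, 1 for acute and 1 for chronic. With the mean of all probe sets of a gene, chronic gave 1 and chronic minus acute 2. Leaving out each array in turn gave 5 for strain, 1 to 2 for morphine, 0 for the interaction, 1 to 3 for acute, 0 to 2 for chronic, 1 for chronic minus acute, 17 to 20 for the pairs and 0 to 3 within strains. The replicate numbers are not stated to pair the samples, and arrays of the same treatment and number correlated over the strains at -0.47 to 0.66 (mean 0.264, 43 of 54 pairs above 0.1). With treatment and number as a random replicate block (consensus correlation 0.241), the morphine F-test called 0 members (Cx3cr1, adjusted p = 0.0138), acute 1 (Cx3cr1, adjusted p = 0.0106, but Aif1 0.272), chronic minus acute 0 (Cx3cr1 0.0554) and the comparisons within strains 1, and 26 of the 29 single calls passed; with the number as a fixed replicate block, chronic gave 1 and within strains 2. Itgam's chronic difference had an adjusted p of 0.12 with the random block. Over all detected probe sets the random block took the calls of the morphine F-test from 2371 to 130, of acute from 1277 to 184, of chronic from 1288 to 90 and of chronic minus acute from 6379 to 1945, while array weights raised them to 6485, 4459, 3332 and 10198; the cause was not tested. Without the filter acute gave 830 calls, and within strains 330 in place of 848. The fixed block gave 3701 for the F-test, 2316 for acute, 2044 for chronic and 2476 within strains, and only the groups compared gave 517 for chronic and 4 within strains. Array weights gave 7251 within strains. The exchanged thresholds gave 5866 for the F-test, 368 for acute, 324 for chronic, 2858 for chronic minus acute and 106 within strains. Without the 3 arrays acute gave 431 and within strains 127. Counted per gene, with the mean of its probe sets, the calls were 1860 for strain, 1228 for morphine, 692 for acute, 2896 for chronic minus acute, 7612 for the pairs and 550 within strains, and fewer features were tested there. The replicate number within treatment as a fixed block leaves no morphine comparison, and gave 26 pairs. The dim signals of Itgam, Trem2 and Aif1 limit what their values can show.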

Other observations

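The mean deviation of the 8 detected members from their group means ran from -0.24 in C57BL/6J saline 1 to 0.22 in C57BL/6J chronic 2 on the log2 scale. The genes outside the list that followed this mean most closely within groups, over 36 arrays, were Wdr45 (r = 0.881), Mrpl42 (0.87), Mrpl20 (0.864), Zfp532 (0.86) and Sri (0.851). Over the 12 group means they were Stt3a (0.944), Pdlim2 (0.943), Mcam (0.913), Ccp110 (0.91) and Ppp1r14a (0.906). These are descriptions of shared arrays, without a test.

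Probe sets of one gene differed in how closely they followed each other. For C1qb the 3 probe sets correlated at 0.923 to 0.959 over the 12 group means, but within groups 1417063_at followed the others at 0.0043 and -0.25, while 1434366_x_at and 1437726_x_at followed each other at 0.66. For Csf1r the values over group means were -0.10 to 0.45. Over the 12 group means the receptor gene P2ry12 correlated with the marker gene Aif1 at 0.715 and with C1qc at -0.73, and Csf1r with Tyrobp at 0.775.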
